A study of Rattus norvegicus with 12 samples.

Results

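Collagen transcripts were followed in the atrial appendages of rats with and without volume overload of the heart. The genes were those for which the array annotation gives, as the only gene of a probe set, a symbol of the form Col, type number, a, chain number. There were 41 such genes among 14217 named genes, and they encode chains of 26 collagen types. They were measured by 58 of the 31042 probe sets tested, a probe set being a group of short probes read as 1 transcript. For the 14 genes with several probe sets, the brightest over all arrays stood for the gene, and all 41 symbols matched RefSeq by gene ID. By class there were 11 fibrillar, 5 basement membrane, 5 type VI, 3 short-chain, 9 FACIT, 2 multiplexin and 4 transmembrane collagen genes, and 2 others, Col7a1 and Col26a1.

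RNA came from male Sprague-Dawley rats that had lived for 28 days with an aorto-caval shunt, an opening between aorta and vena cava that returns blood straight to the heart and overfills it, or that had a sham operation. The 4 groups, the right and the left atrium of shunt and of sham rats, had 3 arrays each, and each array held a pool of 2 tissues. No group carried a transgene or a drug, and age is not given in the sources used here. The labels do not say which right and left tissues came from the same rats, the spread behind every p-value is that between pools, which may be partly technical, and the tissue entry of the labels names ventricles besides atria.

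Collagens are triple-helical proteins of the extracellular matrix. In the heart, fibrillar types I and III form the load-bearing fibres, type V sits inside those fibres, and FACIT collagens such as types XII and XIV decorate their surface. Type IV builds the sheet-like basement membrane around muscle cells and vessels, type VI forms microfibrils next to it, and the multiplexins XV and XVIII anchor it to the fibres. Fibroblasts make most of the fibrillar collagen, while type IV and type VIII chains are also made by vascular cells. Volume overload stretches the atrial wall, and the comparisons ask which collagen genes differ between the chambers and which differ after the shunt.

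The values were log2 values made by RMA, and array medians lay between 5.44 and 5.47. Of the 41 genes, 25 had a mean of 5 or more over the 12 arrays and are called brighter here, and 16 lay below it; the files hold no detection calls. The atrial marker Myl7, the atrial myosin light chain, lay between 14.06 and 14.27 in every array, so all groups had the defining marker of atrial muscle. Markers of ventricular muscle were uneven. The mean level of 5 such genes was 8.56, 9.69 and 9.56 in right atrium shunt replicates 1 to 3, 7.99 to 8.18 in right sham, 6.59 to 7.02 in left shunt and 5.94 to 6.28 in left sham. The third left shunt array (replicate 3) was set off from its group, with a mean correlation of 0.989 to the other two arrays and the highest adipocyte marker level (6.30, against 4.84 and 5.50). No pair of arrays held identical values.

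In sham rats, much of the collagen programme was higher in the left than in the right atrium. All 3 main type VI chains, both multiplexins, 4 of 5 basement membrane genes and 6 of 11 fibrillar genes were higher on the left. The largest difference was that of Col6a2, 2.72-fold, followed by Col1a1 and Col4a2, both more than 2-fold. In all, 19 of the 41 genes passed the threshold of an adjusted p of 0.05 (46.3%), against 37.6% of all named genes, so the chambers differed for a large part of the transcriptome and the total share of collagen genes lay near it. The share higher on the left was 39.0% (16 genes), against 22.2% of named genes, and 3 were lower (against 15.4%). Among the 25 brighter genes the median left minus right difference was 0.61 on the log2 scale, against 0.04 for the 10133 brighter named genes.

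Among fibrillar genes, Col1a1, the main chain of type I collagen, read 10.54, 10.49 and 10.68 in right sham and 11.72, 11.80 and 11.70 in left sham. The groups lay far apart compared with their spread, and the left minus right difference was 1.17 ± 0.11 (log2, SE of the limma fit, n = 3 pools per group; adjusted p = 9.1e-06). Its partner chain Col1a2 read 10.75, 10.75 and 10.89 on the right and 11.61, 11.68 and 11.69 on the left, a difference of 0.86 ± 0.13 (adjusted p = 0.000238). The type V chains, which set fibril diameter, were also higher on the left, Col5a1 by 0.61 ± 0.08 and Col5a2 by 0.36 ± 0.10. Col3a1, the type III chain, was higher by 0.30 ± 0.08 (adjusted p = 0.0142), with every left array (12.90 to 12.96) above every right array (12.61 to 12.68). Every left array lay above every right one for 30.2% of named genes too. Col11a2, a minor fibrillar chain best known from cartilage, was higher by 0.57 ± 0.12. The other 5 fibrillar genes, Col2a1, Col5a3, Col11a1, Col24a1 and Col27a1, did not pass and differed by -0.26 to 0.14.

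**Figure D1:**
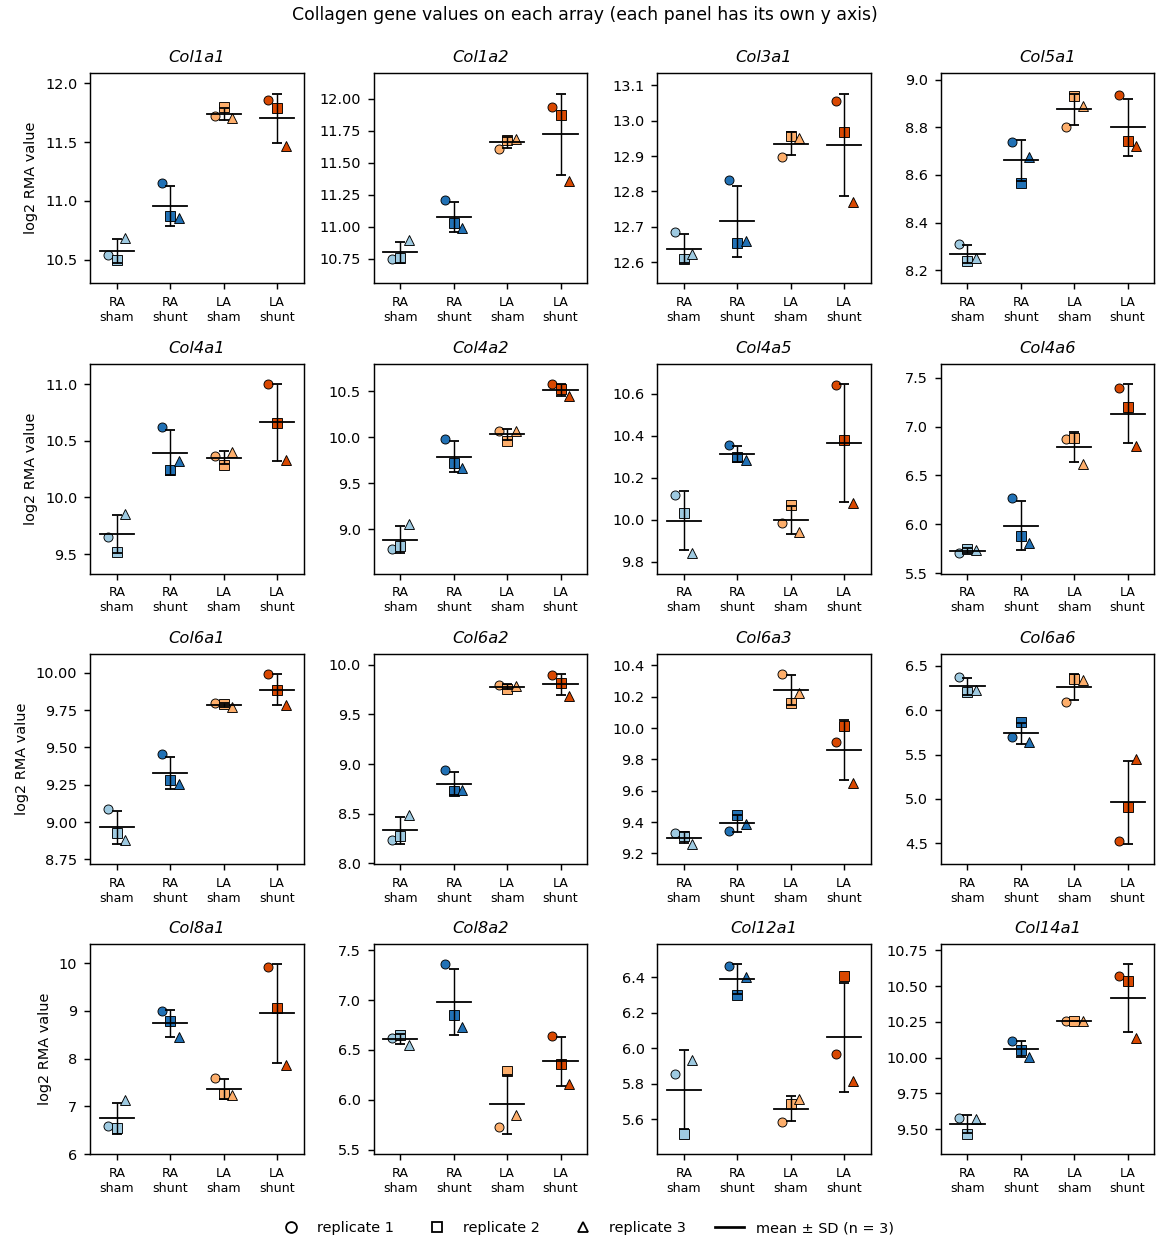
Log2 RMA value (y axis, own scale in each panel) of 16 collagen genes on each array, for right (RA) and left (LA) atrium, sham and shunt; points are pools of 2 tissues, lines are the mean ± SD (n = 3). Col1a1, Col1a2, Col6a1 and Col6a2 lie higher in left than in right arrays, Col8a1 lies higher and Col6a6 lower in shunt than in sham arrays of both atria.

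The type IV genes are arranged in head-to-head pairs, and the data let pairs be compared. Col4a1 and Col4a2 encode the chains of the ordinary basement membrane network, and Col4a5 and Col4a6 those of a network found around smooth muscle and some epithelia. The windows from 250 bases before to 50 bases after the RefSeq start sites (build GRCr8, each written 5′ to 3′ on the gene's own strand) are shown because both members of the first pair differed between the chambers and only 1 member of the second did. They were searched on both strands for the CCAAT box, the GC box GGGCGG, the TATA box TATAAA and the AP-1 type site TGANTCA, and capitals mark each match, written as ATTGG or CCGCCC where it lies on the other strand. The windows are Col4a1 at chr16:84885347-84885646 (plus strand), Col4a2 at chr16:84885471-84885770 (minus strand), Col4a5 at chrX:109907109-109907408 (plus strand) and Col4a6 at chrX:109905895-109906194 (minus strand).
Col4a1: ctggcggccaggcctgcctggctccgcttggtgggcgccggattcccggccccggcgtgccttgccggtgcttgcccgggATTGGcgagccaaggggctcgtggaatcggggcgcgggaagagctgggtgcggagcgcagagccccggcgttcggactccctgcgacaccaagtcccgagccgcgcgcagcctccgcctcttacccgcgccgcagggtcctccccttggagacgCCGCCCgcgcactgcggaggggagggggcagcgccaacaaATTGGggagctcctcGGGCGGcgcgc
Col4a2: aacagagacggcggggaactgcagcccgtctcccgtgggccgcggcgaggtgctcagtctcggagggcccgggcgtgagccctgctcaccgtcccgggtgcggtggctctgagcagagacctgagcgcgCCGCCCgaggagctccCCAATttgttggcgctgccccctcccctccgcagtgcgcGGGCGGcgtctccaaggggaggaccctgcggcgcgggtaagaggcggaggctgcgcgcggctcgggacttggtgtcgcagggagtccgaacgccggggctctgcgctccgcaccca
Col4a5: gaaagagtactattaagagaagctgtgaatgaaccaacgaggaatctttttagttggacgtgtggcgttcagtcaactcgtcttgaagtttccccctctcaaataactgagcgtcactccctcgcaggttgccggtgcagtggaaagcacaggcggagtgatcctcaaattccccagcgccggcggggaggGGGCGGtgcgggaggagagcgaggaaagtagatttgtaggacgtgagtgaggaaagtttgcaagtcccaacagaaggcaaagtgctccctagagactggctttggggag
Col4a6: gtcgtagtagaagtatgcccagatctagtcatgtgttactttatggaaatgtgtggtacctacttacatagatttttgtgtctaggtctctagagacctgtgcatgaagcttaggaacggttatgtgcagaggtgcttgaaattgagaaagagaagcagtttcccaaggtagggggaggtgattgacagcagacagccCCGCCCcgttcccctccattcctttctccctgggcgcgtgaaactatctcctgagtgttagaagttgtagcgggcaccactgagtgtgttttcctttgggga

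The start sites of Col4a1 and Col4a2 lie 77 bases apart, and their windows share 176 bases read in opposite directions. The shared stretch holds 1 CCAAT and 2 GGGCGG matches, and Col4a1 has a second CCAAT match outside it. The start sites of Col4a5 and Col4a6 lie 1415 bases apart, so their windows share 0 bases, and each holds 1 GGGCGG and 0 CCAAT matches. None of the 4 windows holds TATAAA or TGANTCA. Of all 33469 RefSeq promoter windows of this length, 37.49% hold CCAAT, 33.06% GGGCGG, 14.22% TATAAA and 7.329% TGANTCA. Of the 32 collagen genes with a window, 9 hold CCAAT, 18 GGGCGG, 4 TATAAA and 1 TGANTCA. A match is a string of letters and shows no binding.

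In sham rats, Col4a2 read 8.78, 8.82 and 9.05 on the right and 10.06, 9.96 and 10.07 on the left, a difference of 1.15 ± 0.10 (limma, adjusted p = 4.11e-06). Col4a1 read 9.65, 9.52 and 9.86 on the right and 10.37, 10.28 and 10.40 on the left, a difference of 0.68 ± 0.15 (adjusted p = 0.00386). For both genes of this pair the groups did not overlap. Among named genes, 30.2% had every left sham array above every right one and 22.6% had every one below. The second pair was split. Col4a6 read 5.70, 5.75 and 5.74 on the right and 6.87, 6.89 and 6.62 on the left, a difference of 1.06 ± 0.15 (adjusted p = 0.000151), whereas Col4a5 differed by 0.00 (95% confidence interval -0.26 to 0.26) with overlapping arrays. Col4a4, a chain of the network known from kidney and lung, was low on these arrays and higher on the left by 0.61 ± 0.15.

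Type VI collagen showed the largest chamber difference of all collagen genes. Col6a2 read 8.24, 8.28 and 8.49 in right sham and 9.80, 9.75 and 9.79 in left sham, a difference of 1.44 ± 0.09 (limma, adjusted p = 4.66e-07). Its neighbour in the genome, Col6a1, differed by 0.82 ± 0.08 (adjusted p = 1.42e-05) and Col6a3, which completes the heterotrimer, by 0.94 ± 0.09 (adjusted p = 1.13e-05). Col6a5 and Col6a6, alternative chains that can take the place of Col6a3, differed by -0.04 and -0.01 and did not pass. Col15a1 and Col18a1, the 2 multiplexins, were both higher on the left, by 0.80 ± 0.09 and 0.82 ± 0.16, and so was the FACIT gene Col14a1, by 0.72 ± 0.10.

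The genes lower on the left were Col13a1, a transmembrane collagen of cell junctions, Col8a2, a short-chain collagen of endothelial sheets, and the FACIT gene Col9a3. Col13a1 read 4.72, 4.61 and 4.18 on the right and 3.67, 3.63 and 3.89 on the left, all below the array medians, and differed by -0.78 ± 0.12 (limma, adjusted p = 0.000341). Col8a2 read 6.62, 6.65 and 6.55 on the right and 5.73, 6.29 and 5.84 on the left, a difference of -0.65 ± 0.18 (adjusted p = 0.0115). Its partner chain Col8a1 went the other way, at 0.61 ± 0.37 (adjusted p = 0.224), and did not pass; it did in the fit of the sham arrays alone (adjusted p = 0.0169) and without left shunt replicate 3 (adjusted p = 0.0396), with the same difference and another estimate of the spread. Col9a3 differed by -0.32 ± 0.09 (adjusted p = 0.017). Of the 19 calls, 17 held without each of the 12 arrays in turn; Col8a2 was lost without left sham replicate 1 (-0.54) and Col9a3 without right sham replicate 3 or left sham replicate 1 or 3 (lowest size -0.26).

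Markers of several cell types also differed between the chambers of sham rats. The mean level of 6 of 6 fibroblast genes was 11.08 to 11.17 in right sham and 11.00 to 11.05 in left sham, and in this comparison 0 were higher and 1, Dcn (decorin), was lower on the left, while Gsn did not pass with every left array (12.71 to 12.83) above every right one (12.36 to 12.60); 4 of 5 ventricular muscle markers were lower too. Smooth muscle markers were higher on the left for 3 of 4 genes (mean level 7.21 to 7.30, against 6.76 to 6.96), and mesothelial markers, of the cells that line the outer heart surface, for 3 of 4 measured of 5 listed (7.55 to 7.88, against 6.83 to 7.17). Of 5 endothelial markers measured, 3 were higher and 1, Kdr, was lower. Of 4 chondrocyte markers measured, 2 were higher and 0 lower. The 3′ minus 5′ difference of the actin control probe sets, a measure of RNA quality, also parted the chambers, at 1.58 to 1.82 in right sham and 1.31 in all left sham arrays. The part of these cell types and of RNA quality in the collagen differences was not tested, and in whole tissue fewer cells of a type and less RNA per cell cannot be told apart.

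**Figure D2:**
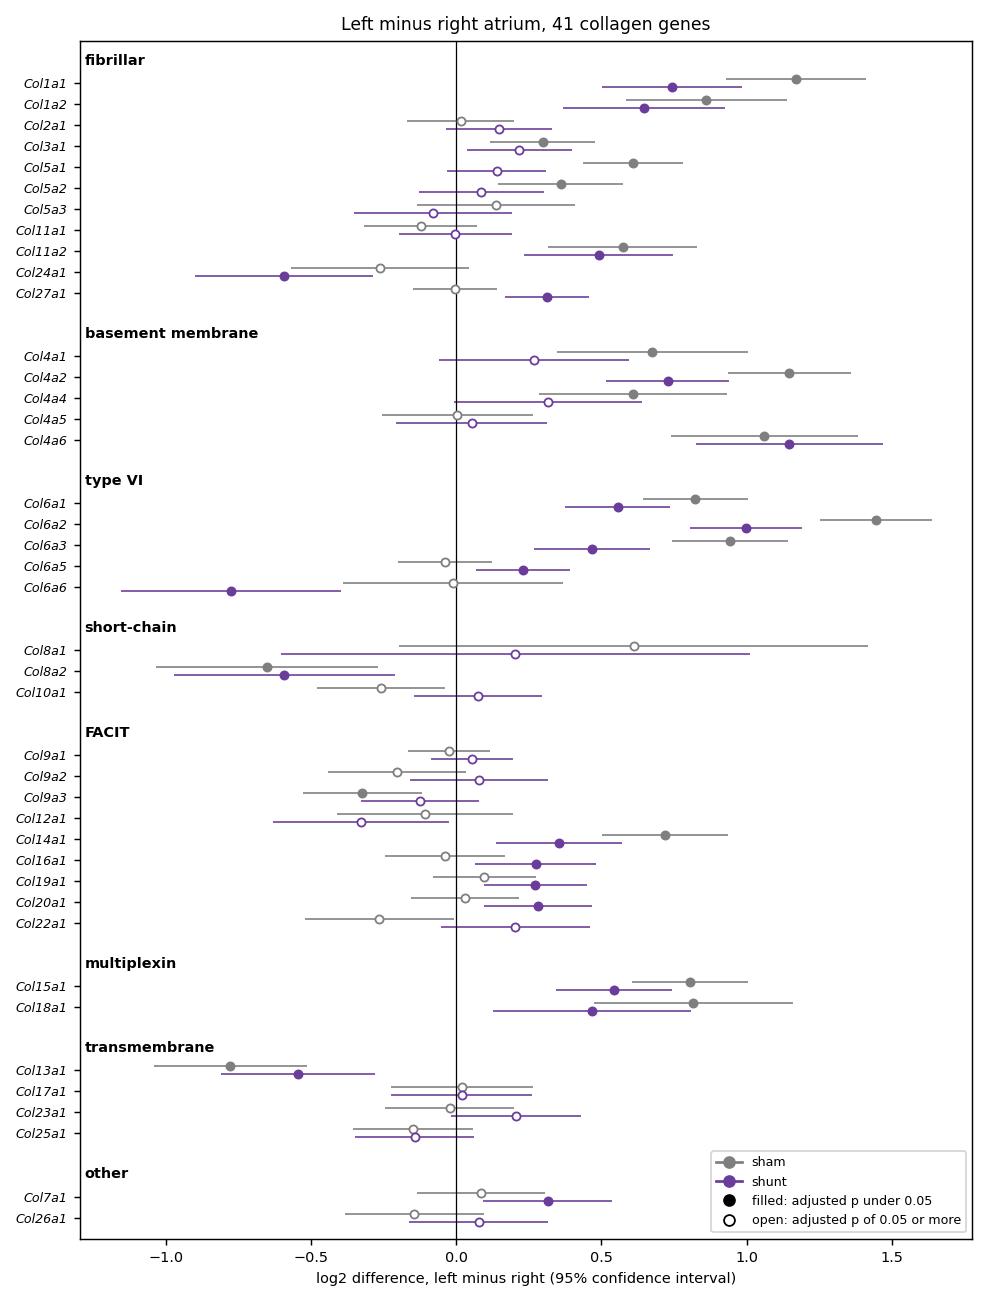
Left minus right log2 difference (x axis, points with 95% confidence intervals) of the 41 collagen genes by class, in sham (grey) and shunt (purple) rats; filled points have an adjusted p under 0.05. In sham rats 16 genes lie higher and 3 lower on the left, in shunt rats 17 and 4.

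After the shunt, both type I genes, the 3 main type VI genes, both multiplexins and the basement membrane genes Col4a2 and Col4a6 were higher in the left than in the right atrium, and the alternative type VI chain Col6a6 was lower. Of the 41 genes 21 passed (51.2%), against 40.5% of named genes; 17 were higher (41.5%), against 21% of named genes, and 4 were lower, against 19.4%. Of these, 11 were higher in both comparisons, Col1a1, Col1a2, Col11a2, Col4a2, Col4a6, Col6a1, Col6a2, Col6a3, Col14a1, Col15a1 and Col18a1, and Col13a1 and Col8a2 were lower in both. The share of named genes called in the same direction in both comparisons is not given here, so these overlaps are a description. The sham and shunt comparisons share no arrays, but their p-values rest on a common spread fitted over all arrays and are not independent. Col6a2 read 8.94, 8.73 and 8.74 in right shunt and 9.90, 9.82 and 9.69 in left shunt, a difference of 1.0 ± 0.09 (limma, adjusted p = 1.05e-05). Col1a1 differed by 0.74 ± 0.11, Col4a2 by 0.73 ± 0.10 and Col6a3 by 0.47 ± 0.09. Of the 16 genes higher on the left in sham rats, 15 had a smaller difference in shunt rats, Col4a6 (1.15 ± 0.15) being the exception; these 16 were picked by the sham comparison, so the count is a description.

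The fibrillar genes Col3a1, Col5a1 and Col5a2 and the basement membrane genes Col4a1 and Col4a4 passed in sham and not in shunt rats, where they differed by 0.22, 0.14, 0.09, 0.27 and 0.31. That does not show that they differed less, since no interaction passed. Col4a1 passed by its second probe set (0.40, limma, adjusted p = 0.0130), with the mean over its probe sets (0.33) and without left shunt replicate 3 (0.44), and Col4a4 passed without left shunt replicate 2 (0.48). Col3a1 lay at the threshold (adjusted p = 0.0579) and passed without dim probe sets, with trended and robust moderation, with array weights, with the mean over probe sets, with 1 probe set per gene and without right shunt replicate 1 (0.27) or left shunt replicate 3 (0.30). Col6a6 and Col24a1 passed in shunt rats, both lower on the left. Col6a6 read 5.70, 5.87 and 5.64 in right shunt and 4.53, 4.91 and 5.45 in left shunt, a difference of -0.78 ± 0.17 (limma, adjusted p = 0.00416). Col24a1 differed by -0.59 ± 0.14, and by -0.39 without left shunt replicate 2. Col27a1, a fibrillar collagen, was higher by 0.31 ± 0.07, and Col7a1, Col16a1, Col19a1, Col20a1 and Col6a5 by 0.23 to 0.31. Without 1 array at a time, 13 of the 21 calls held and 8 were lost. Col14a1 (0.28 to 0.49) was lost without right shunt replicate 3 or left shunt replicate 1 or 2, Col18a1 (0.34 to 0.62) without right shunt replicate 2 or 3 or left shunt replicate 1 or 2, and Col8a2 (-0.72 to -0.40) without right shunt replicate 1 or left shunt replicate 3. Col7a1 (0.22 to 0.39) was lost without right shunt replicate 1 or 2 or left shunt replicate 1, Col19a1 (0.23 to 0.32) without right shunt replicate 1 or left shunt replicate 2 or 3, and Col20a1 (0.24 to 0.34) without right shunt replicate 1 or 2 or left shunt replicate 2 or 3. Col6a5 (0.17 to 0.29) was lost without right or left shunt replicate 1 or 2, and Col16a1 (0.22 to 0.35) without right shunt replicate 1 or 3, right sham replicate 2 or left shunt replicate 1 or 2. With replicate 1 as the only right shunt array, the count was 9. Beside these differences, 1 of 6 fibroblast markers was higher and 2 were lower on the left. Higher there were 3 of 4 smooth muscle, 2 of 4 chondrocyte, 2 of 5 adipocyte and 2 of 5 Schwann cell and neuron markers. Lower were 3 of 5 macrophage and 4 of 5 ventricular muscle markers. Of 4 mesothelial markers 2 were higher and 1 lower, and of 5 endothelial markers 1 was higher and 2 lower. The actin 3′ minus 5′ difference was 1.14 to 1.39 on the left against 1.91 to 2.03 on the right. The part of these cell types and of RNA quality was not tested.

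In the right atrium, the shunt went with higher collagen values across several classes. Col8a1 rose about 4-fold, the basement membrane pair Col4a1 and Col4a2 rose together, and so did the type VI neighbours Col6a1 and Col6a2, the FACIT genes Col12a1 and Col14a1 and the fibrillar Col5a1. Only Col27a1 was called lower, while 20 of the 41 differences, called or not, were negative. The calls made 9 of 41 genes past the threshold (22.0%), against 3.97% of named genes, with 8 higher (19.5%, against 2.83%) and 1 lower (against 1.14%). At an unadjusted p under 0.05 there were 20 of 41, against 3186 of the 14217 named genes. All 9 were among the 25 brighter genes, whose median difference was 0.32, against 0.05 for brighter named genes; for the 16 dimmer genes it was -0.14, against -0.06 for dimmer named genes.

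Col8a1, a short-chain collagen of vessel walls, read 6.58, 6.54 and 7.13 in right sham and 9.0, 8.78 and 8.44 in right shunt. It was the widest-ranging collagen gene on these arrays, and its difference of 1.99 ± 0.37 (limma, n = 3 pools per group, adjusted p = 0.018) is 3.97-fold. In the left atrium it read 7.59, 7.26 and 7.23 in sham and 9.91, 9.06 and 7.86 in shunt, again without overlap. The 3 left shunt arrays were spread so widely that the difference of 1.58 ± 0.37 did not pass (adjusted p = 0.08), and it passed without left shunt replicate 3 (2.12, adjusted p = 0.00097). Averaged over both atria Col8a1 rose by 1.79 ± 0.26 (adjusted p = 0.00308), and this held without each array in turn (1.55 to 2.06). Its partner chain Col8a2 differed by 0.37 ± 0.18 on the right and 0.43 ± 0.18 on the left and passed in neither. Col10a1, the short-chain collagen of growth plate cartilage, was dim and differed by -0.24 and 0.10.

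The promoter window of Col8a1 (chr11:56246532-56246831, plus strand) and that of Col6a6 (chr8:115352112-115352411, minus strand), the genes with the largest rise and the largest fall after the shunt, are given in the same form. Col8a1 has 4 GGGCGG matches and Col6a6 has 2, all on the opposite strand, and neither window holds the CCAAT box, the TATA box or TGANTCA.
Col8a1: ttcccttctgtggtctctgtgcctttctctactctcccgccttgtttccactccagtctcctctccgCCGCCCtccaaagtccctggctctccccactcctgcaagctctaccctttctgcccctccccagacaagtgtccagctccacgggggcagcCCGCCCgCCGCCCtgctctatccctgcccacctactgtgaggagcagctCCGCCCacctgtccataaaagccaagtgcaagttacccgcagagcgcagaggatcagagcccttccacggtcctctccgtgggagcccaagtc
Col6a6: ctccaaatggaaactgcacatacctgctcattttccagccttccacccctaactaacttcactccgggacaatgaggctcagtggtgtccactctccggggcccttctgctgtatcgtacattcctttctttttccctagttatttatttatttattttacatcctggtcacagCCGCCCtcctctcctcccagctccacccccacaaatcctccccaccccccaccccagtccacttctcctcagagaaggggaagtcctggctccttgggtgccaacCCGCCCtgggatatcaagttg

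In the basement membrane class, Col4a2 rose from 8.78, 8.82 and 9.05 in right sham to 9.98, 9.72 and 9.66 in right shunt, by 0.91 ± 0.10 (limma, adjusted p = 0.00109). Col4a1 rose from 9.65, 9.52 and 9.86 to 10.62, 10.24 and 10.32, by 0.72 ± 0.15 (adjusted p = 0.0281). The groups did not overlap for either gene, and the right shunt arrays of Col4a1 spanned the left sham range of 10.28 to 10.40. Of the second pair, Col4a5 differed by 0.32 ± 0.12 and Col4a6 by 0.26 ± 0.15, and neither passed on the right; Col4a4 differed by 0.17 ± 0.15.

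In type VI, Col6a2 rose from 8.24, 8.28 and 8.49 to 8.94, 8.73 and 8.74, by 0.47 ± 0.09 (limma, adjusted p = 0.0188), and Col6a1 rose by 0.37 ± 0.08 (adjusted p = 0.0368). Col6a3 differed by 0.09 ± 0.09 and did not pass. Among FACIT genes, Col12a1 rose from 5.85, 5.52 and 5.93 to 6.47, 6.30 and 6.40, by 0.62 ± 0.14 (adjusted p = 0.0352), and Col14a1 from 9.58, 9.47 and 9.57 to 10.12, 10.06 and 10.00, by 0.52 ± 0.10 (adjusted p = 0.0194). These are the FACIT members known from the surface of type I fibrils, and the other 7 of 9 did not pass, Col22a1, known from muscle-tendon junctions, coming nearest at -0.46 ± 0.12 (adjusted p = 0.0545).

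Of the 5 genes of types I, III and V listed here, 1 passed. Col5a1 rose from 8.31, 8.24 and 8.25 to 8.74, 8.57 and 8.68, by 0.39 ± 0.08 (limma, adjusted p = 0.0233). Col1a1 read 11.16, 10.87 and 10.85 in right shunt, above the 3 sham arrays, yet its 0.39 ± 0.11 did not pass (adjusted p = 0.0811). Col5a2 (0.36 ± 0.10), Col1a2 (0.28 ± 0.13) and Col3a1 (0.08 ± 0.08) did not pass either. Col27a1 fell from 5.54, 5.50 and 5.53 to 5.18, 5.09 and 5.13, by 0.39 ± 0.07 on the log2 scale (adjusted p = 0.0128), with tight groups near the median of the array.

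The right atrial calls stood close to the threshold. Col4a2 passed without each of the 12 arrays in turn (0.81 to 0.99), and Col27a1 was lost only without right shunt replicate 2 (-0.37, adjusted p = 0.0668). Col8a1 (1.86 to 2.18) and Col6a2 (0.40 to 0.55) were lost without right shunt replicate 1 or 2 or right sham replicate 1 or 2, Col14a1 (0.49 to 0.55) without right shunt replicate 1 or 2 or right sham replicate 2 or 3, and Col4a1 (0.61 to 0.81) without any right shunt array or right sham replicate 1 or 2. Col5a1 (0.36 to 0.44) was lost without any of the 6 right atrial arrays, Col12a1 (0.50 to 0.70) without any of these or left sham replicate 3, and Col6a1 (0.31 to 0.43) without any of these but right sham replicate 1, or left sham replicate 1 or 3. The count of 9 thus went from 1, without right shunt replicate 2, to 14, without left shunt replicate 3, when Col1a1, Col5a2, Col6a6, Col17a1 and Col22a1 also passed.

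Markers of other cells moved with the right atrial shunt too. Of 5 ventricular muscle genes 4 rose, with the uneven levels given above. Right shunt replicate 1 had the lowest ventricular level of its group. It was also the highest of the 3 for 20 of the 25 brighter collagen genes, against 41.1% of the brighter named genes. This array was the highest of the 3 for each of the 9 called genes, which fixes the outcome of using it alone. With it as the only right shunt array, 8 of the 9 differences were larger in size and 1, that of Col27a1, was smaller. Col8a1 differed by 2.25, against 1.99 with all 3 arrays, Col4a1 by 0.94 against 0.72 and Col27a1 by -0.34 against -0.39. Of 5 macrophage genes 3 rose, from a mean level of 7.04 to 7.14 in right sham to 7.59 to 7.69 in right shunt. None of the 6 fibroblast markers passed, and their mean level was 11.01 to 11.17 in right shunt. Of 5 endothelial genes measured, 1, Esam, rose, and of 4 mesothelial genes measured, 1, Krt19, fell. The actin 3′ minus 5′ difference was 1.91 to 2.03 in right shunt, above the sham arrays. The neuronal gene Prph rose and the atrial potassium channel gene Kcna5 fell. The part of ventricular muscle, macrophages, these other cell types and RNA quality in the collagen values was not tested.

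**Figure D3:**
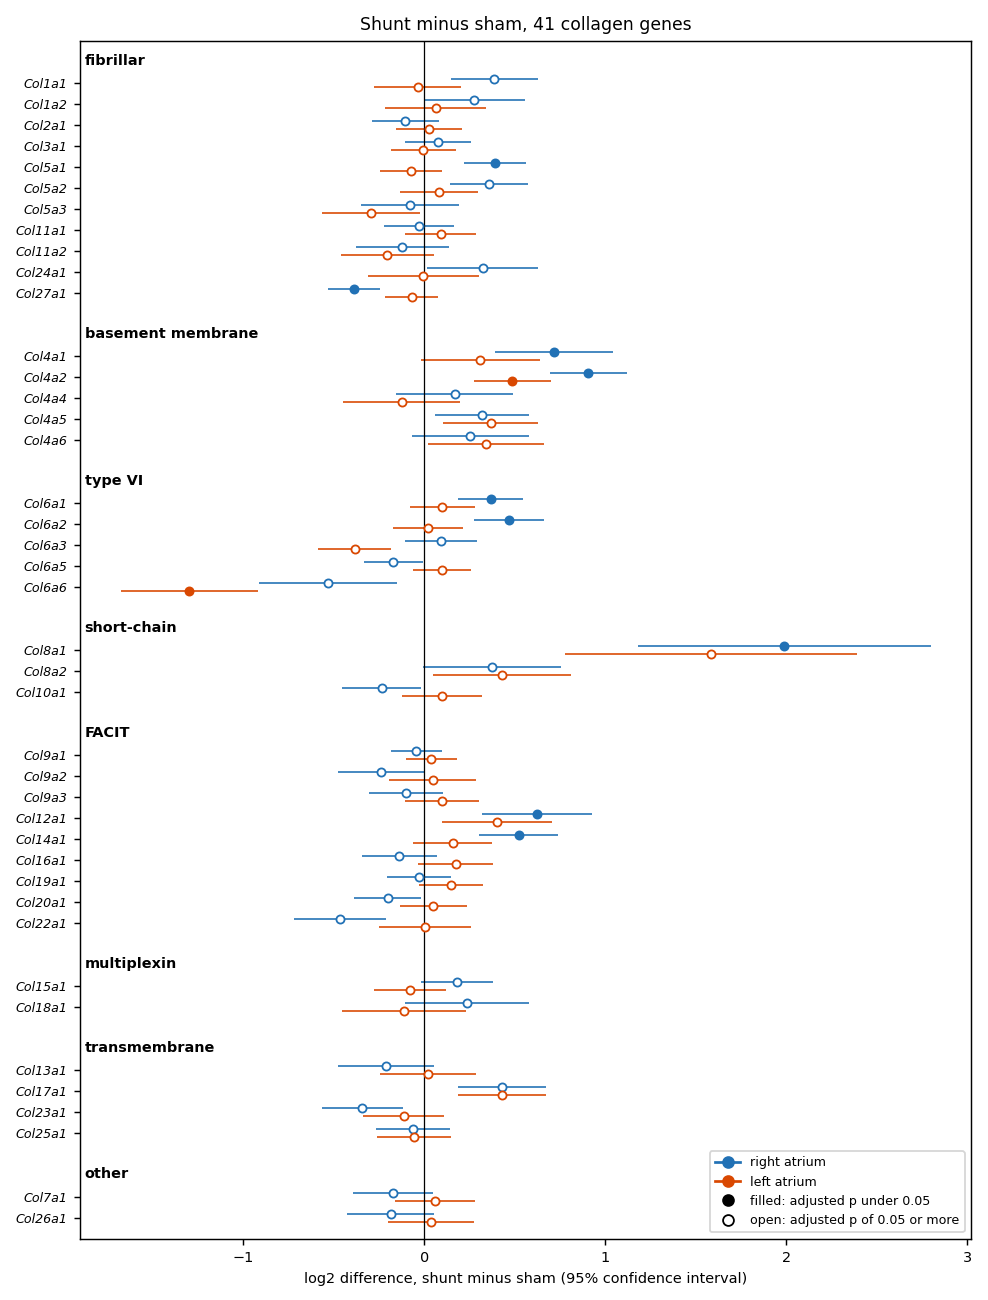
Shunt minus sham log2 difference (x axis, points with 95% confidence intervals) of the 41 collagen genes by class, in the right (blue) and left (orange) atrium; filled points have an adjusted p under 0.05. Col8a1 lies furthest to the right in both atria, Col6a6 furthest to the left, and filled points number 9 in the right and 2 in the left atrium.

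In the left atrium, 2 collagen genes passed. Col6a6, an alternative type VI chain, fell 2.46-fold, and Col4a2 of the basement membrane rose 1.4-fold. The 2 of 41 make 4.88%, against 0.935% of named genes (0.373% higher and 0.563% lower). An unadjusted p under 0.05 was found for 10 of 41, against 2093 of the 14217 named genes. Col6a6 read 6.09, 6.35 and 6.34 in left sham and 4.53, 4.91 and 5.45 in left shunt, a fall of 1.30 ± 0.17 on the log2 scale (limma, adjusted p = 0.00527). The groups lay well apart, and 2 of the 3 shunt arrays were below the median of the array while all sham arrays were above it. Col4a2 rose from 10.06, 9.96 and 10.07 to 10.58, 10.53 and 10.45, by 0.49 ± 0.10 (adjusted p = 0.0419). In the right atrium Col6a6 read 6.38, 6.21 and 6.22 in sham and 5.70, 5.87 and 5.64 in shunt; the groups did not overlap, and the difference of -0.53 ± 0.17 did not pass (adjusted p = 0.118).

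The major fibrillar genes lay at nearly the same level in left shunt and left sham. Col1a1 read 11.86, 11.79 and 11.47 in left shunt against 11.72, 11.80 and 11.70 in sham, a difference of -0.04 with a 95% confidence interval of -0.28 to 0.20. Col3a1 differed by -0.00 (-0.18 to 0.18), Col1a2 by 0.06 (-0.22 to 0.34), Col5a1 by -0.07 (-0.25 to 0.10) and Col5a2 by 0.08 (-0.13 to 0.30). In type VI, Col6a3 read 10.34, 10.16 and 10.23 in sham and 9.91, 10.02 and 9.65 in shunt; every shunt array was lower, and -0.38 ± 0.09 did not pass (limma, adjusted p = 0.085). Col6a1 differed by 0.10 ± 0.08 and Col6a2 by 0.02 ± 0.09. Col12a1 (0.40 ± 0.14), Col4a5 (0.37 ± 0.12), Col4a6 (0.34 ± 0.15), Col4a1 (0.31 ± 0.15) and Col14a1 (0.16 ± 0.10) did not pass. The fall of Col6a6 held without each array in turn (-1.54 to -1.08) and was lost in the fit of the left arrays alone (adjusted p = 0.129); the rise of Col4a2 held in 3 of 12 such fits (0.45 to 0.52), being lost without each left sham array, left shunt replicates 1 and 2, right shunt replicates 2 and 3 and right sham replicates 1 and 2. None of the 6 fibroblast markers passed on the left (mean level 10.85 to 11.12 in shunt), 1 of 5 ventricular muscle markers, Myh7, and the neuronal gene Prph rose, and no macrophage or adipocyte marker passed; their part was not tested.

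Whether the shunt acted differently in the 2 atria was tested by the interaction, the left difference minus the right one. By limma, 0 of 41 collagen genes passed, against 0.0281% of named genes, and 0 passed in any alternative fit. An unadjusted p under 0.05 was found for 13 of the 41, against 2063 of the 14217 named genes. The smallest adjusted p was that of Col5a1 (-0.47 ± 0.11, adjusted p = 0.145), followed by Col6a3 (-0.48 ± 0.13, adjusted p = 0.175) and Col6a2 (-0.45 ± 0.13, adjusted p = 0.183). So the larger number of calls on the right does not show that collagen genes responded differently there. Among the 25 brighter genes the median interaction was -0.27, against -0.07 for brighter named genes. The 95% confidence interval for Col1a1 was -0.77 to -0.08 and for Col8a1 -1.55 to 0.73.

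Averaged over both atria, 11 of 41 collagen genes passed (26.8%), against 5.25% of named genes, with 9 higher (against 3.4%) and 2 lower (against 1.86%). Col4a2 rose by 0.70 ± 0.07 (limma, adjusted p = 0.000194), Col4a1 by 0.51 ± 0.11 (adjusted p = 0.0197) and Col4a5 by 0.34 ± 0.08 (adjusted p = 0.0428), so that 3 of the 5 basement membrane genes were called. Col6a6 fell by 0.91 ± 0.12 on the log2 scale (adjusted p = 0.00179). Col17a1, a transmembrane collagen of hemidesmosomes, was called in neither atrium by itself, with 0.43 ± 0.11 on both sides, and rose by 0.43 ± 0.08 in the average (adjusted p = 0.0105). It read 4.34, 4.05 and 4.13 in right sham, 4.71, 4.56 and 4.54 in right shunt, 4.43, 4.07 and 4.09 in left sham and 4.49, 4.69 and 4.70 in left shunt, all on the dim side. Col12a1 (0.51 ± 0.10) and Col14a1 (0.34 ± 0.07) rose as well, Col6a1 (0.23 ± 0.06) and Col6a2 (0.25 ± 0.06) passed narrowly, and Col27a1 fell by 0.23 ± 0.05. Col4a2, Col8a1, Col12a1, Col17a1 and Col6a6 held without each array in turn. Col27a1 was lost without right shunt replicate 2, Col4a1 (0.43 to 0.60) without right shunt replicate 1, right sham replicate 2 or left sham replicate 2, and Col14a1 (0.30 to 0.41) without right shunt replicate 1, right sham replicate 2 or left shunt replicate 2. Col4a5 (0.27 to 0.41) held only without left shunt replicate 3, Col6a1 only without that array or right sham replicate 1, and Col6a2 only without that array or right sham replicate 3. The count of 11 ranged from 6, without right shunt replicate 1 or right sham replicate 2, to 15, without left shunt replicate 3, when Col1a2 (0.26), Col4a6, Col5a2 and Col8a2 passed too. Col6a1 and Col6a2 also lost their calls when array medians were subtracted.

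**Figure D4:**
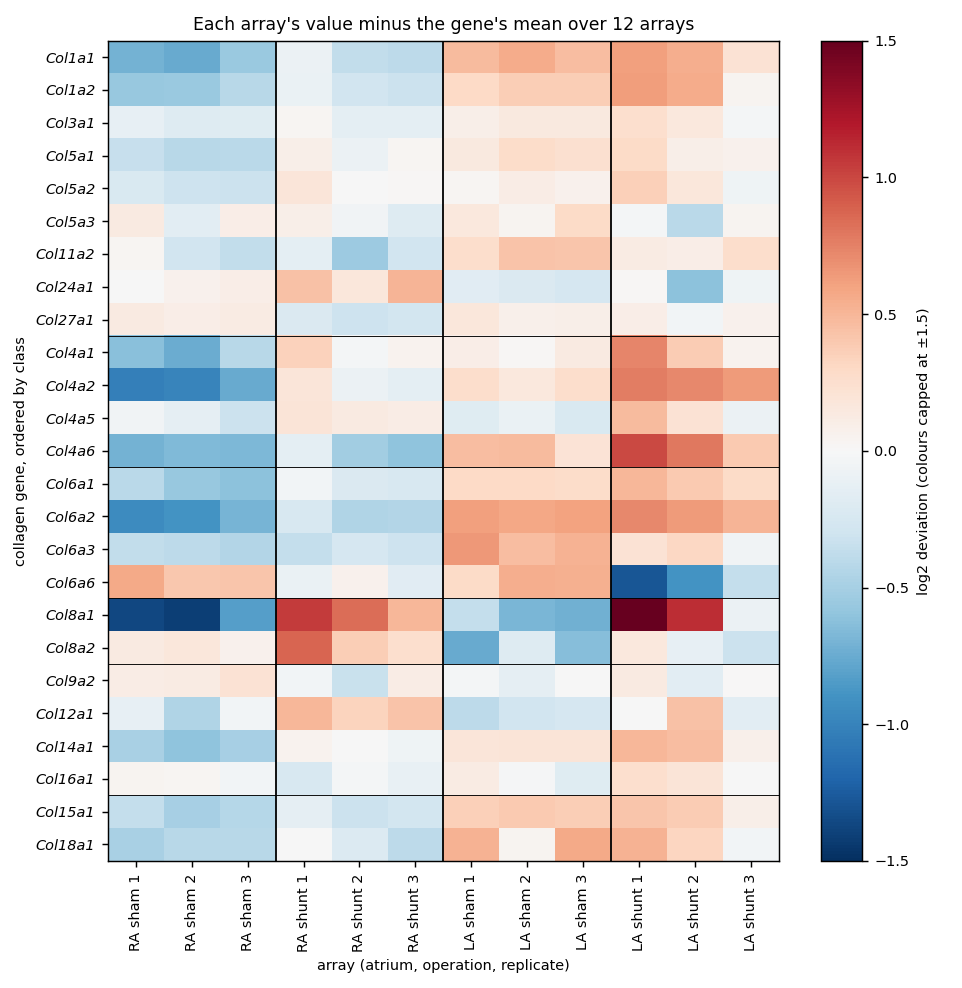
Log2 value of each array minus the gene's mean over the 12 arrays (colour, capped at ±1.5) for the 25 brighter collagen genes, ordered by class; columns are arrays by atrium (RA right, LA left), operation and replicate. Most fibrillar, type IV and type VI rows are blue in right sham and red in left arrays, Col8a1 lies above and Col6a6 below its mean in 5 of 6 shunt arrays, the opposite of all sham arrays.

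Genes that build, process and break down collagen were read from a list of 51, of which 39 were measured. After the shunt 1 rose on the right, Plod2, a lysyl hydroxylase that prepares collagen for cross-linking, by 0.46 ± 0.10 (limma, adjusted p = 0.0352), from 7.53, 7.41 and 7.44 to 8.04, 7.88 and 7.84. None passed on the left. The share called on the right was 2.56%, against 3.97% of named genes. In the average over both atria 5 rose, Plod2 (0.43), the cross-linking oxidases Lox (0.41) and Loxl1 (0.36), Pcolce (0.32), which promotes cleavage of procollagen, and the collagen-binding Sparc (0.28). The 12.8% called in that average stands beside 26.8% of the collagen genes and 5.25% of named genes.

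Between the chambers of sham rats 6 of the 39 were higher on the left and 4 lower. Together these were 25.6% of the list, below the 37.6% of all named genes. The higher ones were P3h3 (1.03) and P3h1 (0.25), prolyl hydroxylases, Serpinh1 (0.23), the collagen chaperone, Bmp1 (0.43), a procollagen protease, the gelatinase Mmp2 (0.66) and the fibroblast protease Fap (0.44). Of 4 lysyl oxidases measured, 2 were lower on the left, while Loxl1 (-0.08) and Loxl3 (0.13) did not pass. Lox read 7.99, 7.79 and 7.79 on the right and 6.62, 6.53 and 6.55 on the left, lower by 1.29 ± 0.14 on the left (limma, log2 difference -1.29), and Loxl2 differed by -1.36 ± 0.26 (adjusted p = 0.00144). The collagen receptor chains Itga1 (-1.25) and Itgb1 (-0.22) were lower too. After the shunt 6 were higher and 6 lower on the left, with P4ha2 (-0.44) and Mia3 (-0.33) among the lower and Creb3l1 (0.44) among the higher. That was 30.8% of the list, again below the share of all named genes (40.5%).

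In 10 of the 41 genes no comparison passed. The matching share of named genes is not given here, so the count is a description. These were Col2a1, Col11a1 and Col5a3 of the fibrillar class, Col9a1, Col9a2 and Col22a1 of the FACIT class, the transmembrane Col23a1 and Col25a1, the short-chain Col10a1, and Col26a1. All but Col5a3 and Col9a2 had a mean below 5 over the 12 arrays, among them the chains best known from cartilage, Col2a1 (3.71 to 4.05 over all arrays), Col9a1 (3.35 to 3.48) and Col10a1 (3.15 to 3.66).

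In 14 genes several probe sets could be compared, and some read differently from the brightest. In sham rats the second probe set of Col1a1 was higher on the left by 0.50 (limma, adjusted p = 0.00284) and that of Col6a2 by 0.43 (adjusted p = 0.0104), smaller than the brightest ones, while those of Col15a1 (1.36) and Col6a3 (1.32) were larger. Those of Col1a2 (0.19, adjusted p = 0.272), Col5a2 (0.19, adjusted p = 0.148) and Col4a6 (0.44, adjusted p = 0.216) did not pass. In the right atrium after the shunt, the second probe set of Col4a1 rose by 0.48 (adjusted p = 0.0371), and that of Col5a2 by 0.41 (adjusted p = 0.0415) where the brightest one missed the threshold. The second probe sets of Col5a1 (0.36), Col6a2 (0.19) and Col14a1 (0.15) did not pass there, nor did the other 2 of Col12a1 (-0.17 and 0.08). For Col2a1, the main cartilage collagen, the other 2 probe sets were higher on the left in sham rats by 0.28 and 0.35, where the brightest differed by 0.01.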

How the data were processed

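RNA of 12 pools, each of 2 atrial appendage tissues, was measured on 1-colour oligonucleotide arrays. The deposited values are log2 expression values per probe set, which the authors computed by the RMA method (per the submitters' processing notes); its version is not given in the sources used here. RMA corrects the background, quantile-normalizes the arrays and compresses differences of dim probe sets. From the deposited values, 57 control probe sets were left out of 31099. The other 31042 were fitted with limma 3.58.1 in R 4.3.3 with 1 mean per group over all 12 arrays, 6 contrasts and two-sided moderated tests. P-values were adjusted by Benjamini-Hochberg over all 31042, with a threshold of 0.05. Differences are log2 differences ± the SE of the fit.

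Gene names came from the platform annotation, which gave 1 gene for 20826 of the tested probe sets, several for 436 and none for 9780. Values were given for genes past the threshold in any contrast and for a set list of the main collagen genes. The members and lists were chosen with earlier results of these data known. Alternatives were a filter on dim probe sets, quantile normalization, median centring, trended and robust moderation, weights for arrays, fits restricted to the groups being compared, a replicate block, the mean over probe sets, 1 probe set per gene, each array left out in turn, replicate 1 as the only right shunt array and, added after seeing the data, a replicate block within each operation. The fit was tested on simulated data. The number of arrays limits the precision.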

Additional observations from a re-analysis of the deposited data

Results flagged for a closer look

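For 2 collagen genes every shunt array lay on one side of the sham arrays in the right atrium and on the other side in the left. Groups of 3 arrays often lie apart. In the right atrium, 19.4% of named genes had every shunt array above the sham arrays and 12.6% below. In the left atrium these shares were 8.69% and 10.4%. The share of named genes with opposite sides in the 2 atria was not computed, so the pattern may be common. Col6a3, the chain that completes the type VI heterotrimer, read 9.34, 9.45 and 9.39 in right shunt against 9.33, 9.31 and 9.26 in right sham, and 9.91, 10.02 and 9.65 in left shunt against 10.34, 10.16 and 10.23 in left sham. The interaction was -0.48 ± 0.13 and did not pass in limma (adjusted p = 0.175). Col6a5, an alternative type VI chain, read 3.85, 3.72 and 3.97 in right shunt against 4.0, 3.99 and 4.07 in right sham, and 4.12, 4.06 and 4.06 in left shunt against 4.03, 3.97 and 3.94 in left sham. Its interaction was 0.27 ± 0.11 and did not pass either (adjusted p = 0.284). Col6a5 is dim, and the median interaction of the dimmer named genes was 0.07. Groups of 3 arrays are too small for a test of single outlying arrays.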

How the results depend on the processing

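Of 62 called pairs of gene and comparison, 28 kept their call in every alternative that tested the gene. Among these are Col13a1 and Col4a4 between the chambers of sham rats, which the filter on dim probe sets left out. In the right atrium the count of 9 collagen genes was 15 with array weights, 14 in the fit of only the groups compared and 1 with replicate 1 as the only right shunt array; in the left atrium the count of 2 was 0 in the fit of only the groups compared and 1 with replicate 1 as the only right shunt array. With that array alone the count was 9 (main 21) for left minus right in shunt rats and 3 (main 11) for the average. Leaving out 1 array gave 1 to 14 in the right atrium, 1 to 4 in the left, 18 to 20 and 16 to 22 for left minus right in sham and shunt rats, 0 for the interaction and 6 to 15 for the average. The cause of these shifts was not tested, though fits with fewer arrays have fewer degrees of freedom.

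The labels do not say that replicate numbers pair the samples, and of 18 same-number pairs of arrays 3 correlated over 0.1 (range -0.10 to 0.15). Between right and left arrays of 1 operation, however, all 6 same-number pairs correlated above 0 (0.0789 to 0.148) and all 12 different-number pairs below 0 (-0.0886 to -0.0116), and each of 12 arrays correlated best with its own number. This is a hint from the data, not the design, that right and left pools of a number may be related. A replicate block within each operation, chosen after seeing the data, gave 21, 20 and 0 calls for the chambers of sham rats, those of shunt rats and the interaction (main 19, 21 and 0). With the replicate block over all arrays the counts were 8, 1, 19, 21, 0 and 10 for right atrium, left atrium, the chambers of sham rats, those of shunt rats, interaction and average; Col12a1 was lost on the right, Col4a2 on the left and Col6a2 in the average.

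Signs turned only for differences near 0 that were not called. In the left atrium, leaving out 1 array gave -0.139 to 0.0275 for Col15a1, -0.278 to 0.0410 for Col18a1, -0.114 to 0.0823 for Col1a1, -0.0436 to 0.247 for Col1a2, -0.0656 to 0.0764 for Col3a1, -0.0219 to 0.195 for Col5a2 and -0.0250 to 0.0778 for Col6a2. Array weights gave 0.0263 for Col1a1 and 0.0317 for Col3a1 there, and the mean over probe sets gave -0.0220 for Col6a2 on the left and -0.0271 for Col6a3 on the right. The fit of only the groups compared was not run for the interaction and the average, which use all groups. Signal limits the 16 dimmer genes, whose distance from background is not known.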

Other observations

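Within groups, the collagen genes ranked the arrays unevenly. Of the 25 brighter collagen genes, 20 were highest in right shunt replicate 1 within its group, against 41.1% of the brighter named genes, and 20 were highest in left shunt replicate 1, against 30.1%. In left shunt replicate 3, 19 were lowest, against 39.7%. In that array Col8a1 read 7.86, against 9.91 and 9.06 in the other two left shunt arrays, and Col4a1 read 10.33, against 11.00 and 10.66. The labels give the replicate numbers no meaning, and these counts describe single arrays. As right and left pools of a number may be related, the counts of the right and left replicate 1 arrays may not be independent.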
